A study of Mus musculus with 6 samples.

Results

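The genes described are those for the enzymes with which the pancreas digests fat and starch: the lipases Pnlip, Pnliprp1, Pnliprp2 and Cel, the lipase cofactor Clps, the phospholipase Pla2g1b and the amylases Amy1, Amy2a5 and Amy2b. They were chosen by gene symbol, and all 9 were found among the 44713 genes of the count table. RNA-seq was performed on rRNA-depleted total RNA of islets from 10-week-old males, 3 of them db/db and 3 db/m. The islets were freed from the pancreas with collagenase and purified on a density gradient. The db/db mice carry the Leprdb mutation, which disables the receptor for leptin, and develop obesity and diabetes, and their db/m littermates, with 1 normal copy of the gene, were the controls. The labels of the samples give the strain as C57BL/6 and the genotypes as Lepr-/- and wild type, whereas the methods of the study name the stock BKS.Cg-Dock7m+/+Leprdb/Nju. The mutation is present in every tissue from birth, so that effects of leptin, obesity and diabetes cannot be told apart.

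These enzymes are made by the acinar cells of the exocrine pancreas, not by the endocrine cells of the islets. PNLIP cleaves dietary triglycerides and needs colipase, the product of Clps, to act in the presence of bile salts, while CEL is activated by bile salts and also cleaves cholesterol esters. The acinar cells receive blood that has passed the islets, and pancreatic amylase mRNA is known to depend on insulin and to fall in insulin-deficient diabetes.

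Although the samples are labelled islet cells, acinar genes took a large part of every library. The study describes the islets used for RNA-seq as free of acinar cells, on the basis of insulin staining in which most isolated cells were positive. The 15 digestive protease genes of a list of acinar markers held 49.05% to 54.8% of the counts in db/db mice and 39.6% to 48.4% in db/m mice, and the groups did not overlap. The insulin genes Ins1 and Ins2 held 0.121%, 0.502% and 0.407% of the counts in db/db replicates 1, 2 and 3, against 3.75%, 0.605% and 0.649% in db/m replicates 1, 2 and 3. The library of db/m replicate 1 thus stood apart, with the highest insulin share and the lowest protease share, and its TMM factor, which corrects library size for composition, was 1.75 against 0.605 to 1.07 in the other mice. Totals lay between 15641797 and 20614531 counts per mouse. In bulk RNA, fewer cells of a type and less RNA per cell cannot be told apart.

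The 3 amylase genes lie on the reverse strand of chromosome 3 and are close copies of each other. A stretch of coding sequence (coding bases 187 to 246, RefSeq, GRCm38.p6) is shown because it is the 60-base stretch within a single exon where Amy2b and Amy2a5 differ most, and such differences decide whether a read can be given to one of them. Capitals mark the 13 positions at which the 3 genes are not all alike. The stretches lie at chr3:113156133-113156192 for Amy2b, chr3:113258107-113258166 for Amy2a5 and chr3:113569451-113569510 for Amy1.
Amy2b: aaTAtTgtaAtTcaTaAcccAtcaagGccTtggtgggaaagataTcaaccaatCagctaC
Amy2a5: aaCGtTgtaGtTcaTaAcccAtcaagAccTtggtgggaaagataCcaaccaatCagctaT
Amy1: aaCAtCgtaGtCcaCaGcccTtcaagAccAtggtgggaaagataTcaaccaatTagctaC

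Amy2b differed from Amy2a5 at 6 of these 60 positions and Amy1 differed from each at 10. Over the aligned coding sequence, Amy2b was 97.9% identical to Amy2a5 (28 differences in 1362 bases), while Amy1, the amylase also made in salivary gland and liver, was 89.9% identical to Amy2a5. The coding sequence of Amy2a5 was 100% identical to those of Amy2a2, Amy2a3 and Amy2a4. Of its 50-base stretches, 100% occurred in another amylase gene, against 38.2% for Amy2b and 2.94% for Amy1. By contrast, 0% of the stretches of the lipase genes, Clps and Pla2g1b occurred in another gene of the set, and the coding sequences of Pnlip and Pnliprp1 were 71.4% identical. The counts of Amy2a5 are therefore uncertain, because how reads with several matching places were counted is not given in the sources used here.

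The promoters of Amy2b, Amy2a5, Cel and Pnlip are shown because acinar enzyme genes are known targets of the PTF1 complex, which binds a pair of motifs, and because the insulin response of the amylase promoter has been placed at such a site. The windows hold the 160 bases before the annotated start (RefSeq, GRCm38.p6), and capitals mark CANNTG, and TTTCCC in either orientation. They lie at chr3:113156728-113156887 for Amy2b, chr3:113258700-113258859 for Amy2a5, chr2:28563404-28563563 for Cel, all on the reverse strand, and chr19:58670205-58670364 on the forward strand for Pnlip.
Amy2b: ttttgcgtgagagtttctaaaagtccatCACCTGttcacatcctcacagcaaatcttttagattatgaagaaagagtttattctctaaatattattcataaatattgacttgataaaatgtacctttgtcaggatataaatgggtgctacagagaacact
Amy2a5: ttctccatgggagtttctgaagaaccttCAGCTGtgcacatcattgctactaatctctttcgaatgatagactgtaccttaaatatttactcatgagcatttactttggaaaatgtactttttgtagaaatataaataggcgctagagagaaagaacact
Cel: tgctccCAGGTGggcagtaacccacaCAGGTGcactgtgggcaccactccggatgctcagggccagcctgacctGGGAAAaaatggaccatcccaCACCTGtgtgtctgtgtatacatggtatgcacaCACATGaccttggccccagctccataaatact
Pnlip: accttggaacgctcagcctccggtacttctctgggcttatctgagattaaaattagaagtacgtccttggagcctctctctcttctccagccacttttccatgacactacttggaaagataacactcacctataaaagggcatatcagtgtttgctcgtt

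Amy2b and Amy2a5 each held 1 CANNTG and 0 TTTCCC in these bases, at the same place in both windows. Cel held 4 CANNTG and 1 TTTCCC, and Pnlip held 0 of either. Promoter windows of 300 bases, from 250 before to 50 after the start, were given for 8 of the 9 genes, with Clps not among them. In these longer windows Amy2b and Amy2a5 each held 1 TTTCCC, outside the 160 bases shown and more than 30 bases from their CANNTG. Only Cel had both motifs at most 30 bases apart, a pair found in 6.51% of 32851 mouse promoters, where CANNTG alone was found in 72.3% and TTTCCC alone in 25.2%. A match of letters is a description and does not show that a factor binds.

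Expression was first compared between the genes within the same mice, as CPM (counts scaled to library size, here after TMM) per kilobase of exon. The order of the means over the 6 mice was Pnlip (54274), Clps (25196), Pnliprp1 (17250), Cel (15248), Amy2b (6825), Pnliprp2 (3912), Pla2g1b (430), Amy1 (132) and Amy2a5 (68.4). Each gene lay above the next one in 6 of 6 mice, except that Clps lay above Pnliprp1 in 5 and Pnliprp1 above Cel in 5. The places of the amylases, above all of Amy2a5, depend on how reads shared between the copies were counted, which is not given. Pnlip was the 2nd or 3rd gene of all by counts in every library. Genes that mark other sources of Amy1 were near the floor, with Bpifa2, Smr2 and Prol1 of the salivary gland at 0 counts in every mouse and Alb of the liver at 4 to 51 counts.

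**Figure D1:**
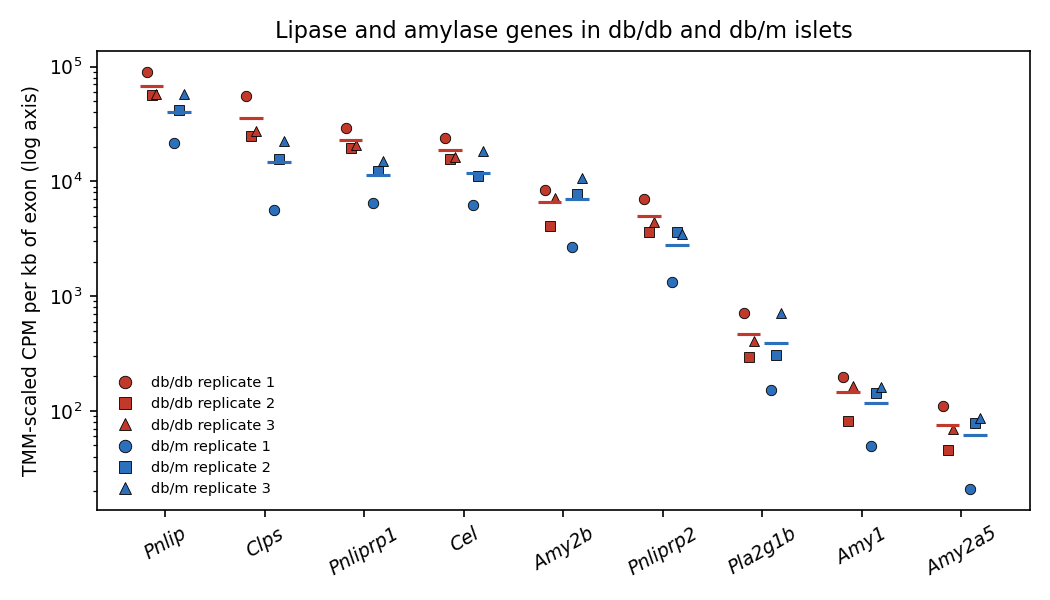
TMM-scaled CPM per kilobase of exon (log axis) of the 9 genes in each mouse, with horizontal bars at the group means. Pnlip was highest and Amy2a5, whose counts are uncertain because its sequence is shared with other copies, was lowest. Db/m replicate 1 was the lowest mouse for all 9 genes.

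None of the 9 genes passed the threshold between db/db and db/m mice. With edgeR's quasi-likelihood test, 0 of 9 had an adjusted p under 0.05, against 0.619% of the 12760 genes tested, and 0 of 9 had an unadjusted p under 0.05, against 14.9% of all. DESeq2 called 1 of the 9, Pnliprp1, where it called 4.59% of the 14821 genes with an adjusted p. It gave 4 of the 9 at an unadjusted p under 0.05, against 9.91% of its 23480 genes with a p. The log2 fold change (db/db minus db/m) was above 0 for 8 of the 9 genes with a median of 0.65, beside a median of -0.00093 over all genes tested. In TMM-scaled CPM, 3 of the 9, namely Pnliprp1, Pnliprp2 and Clps, lay higher in every db/db mouse than in every db/m mouse, where 8.53% of all tested genes did. As a percent of the library this held for 2 of the 9, Pnliprp1 and Clps, against 1.08% of all tested genes.

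Pnlip, the main triglyceride lipase of pancreatic juice (chr19:58670365-58681799), had 135375, 84064 and 86471 CPM in db/db replicates 1, 2 and 3 and 32542, 62951 and 86409 CPM in db/m replicates 1, 2 and 3. The groups overlapped, since db/m replicate 3 lay above db/db replicate 2, and the spread came largely from db/db replicate 1 and db/m replicate 1. The means were 101970.0 ± 28954 CPM (SD, n = 3) and 60634 ± 27008 CPM (SD, n = 3), a log2 fold change of 0.75 (SE 0.65, edgeR adjusted p = 0.619). An approximate 95% interval for the difference ran from -0.53 to 2.03, and both a rise and a fall lay within it. This interval takes a normal distribution and is narrower than the edgeR test implies.

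Pnliprp1, a lipase-related gene next to Pnlip whose protein has little known activity on triglycerides (chr19:58728887-58744169), had 47113, 31815 and 33417 CPM in the db/db mice and 10560.5, 20089 and 24572 CPM in the db/m mice. All db/db values lay above all db/m values. The means of 37448 ± 8408 CPM (SD, n = 3) and 18407 ± 7155 CPM (SD, n = 3) gave a log2 fold change of 1.02 (SE 0.55, edgeR adjusted p = 0.427). With DESeq2 it was 1.04 with an adjusted p of 0.04995, just inside the threshold, in a range from that value to 0.955 over all 16 alternatives.

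Pnliprp2, which also cleaves galactolipids and phospholipids (chr19:58759723-58777534), had 10948, 5732 and 6906 CPM in the db/db mice and 2085, 5665 and 5464 CPM in the db/m mice. The groups did not overlap, although db/db replicate 2 and db/m replicate 2 were nearly equal. Its log2 fold change was 0.84 (SE 0.51, edgeR adjusted p = 0.481), and the percent of the library taken by Pnliprp2 overlapped between groups.

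Cel, the bile salt-activated lipase (chr2:28555819-28563403), had 49353, 32845 and 34089.8 CPM in the db/db mice and 12865, 22942 and 38197 CPM in the db/m mice. The groups overlapped through db/m replicate 3. The log2 fold change of Cel was 0.65 (SE 0.59, edgeR adjusted p = 0.629).

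Clps, the cofactor of PNLIP (chr17:28558210-28560766), had the highest fold change of the 9 genes. It had 30324, 13639 and 14994 CPM in the db/db mice and 3103, 8625 and 12462 CPM in the db/m mice, with every db/db mouse above every db/m mouse. The means were 19652 ± 9267 CPM (SD, n = 3) and 8063 ± 4705 CPM (SD, n = 3). The log2 fold change was 1.29 (SE 0.63, edgeR adjusted p = 0.376), and it was 0.83 without db/db replicate 1, 0.93 without db/m replicate 1 and 1.75 without db/m replicate 3.

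Pla2g1b, the secreted phospholipase A2 of pancreatic juice (chr5:115466142-115474722), was expressed at a far lower level. Its values were 588, 245 and 339 CPM in the db/db mice and 125, 255 and 589 CPM in the db/m mice, so that both groups spanned much the same range. The log2 fold change was 0.27 (SE 0.55, edgeR adjusted p = 0.847) and turned to -0.080 without db/m replicate 1.

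Amy2b (chr3:113147656-113156727), which took 95.7% to 97.2% of the counts of the 3 amylase genes in every mouse, was the gene of the 9 with a fold change below 0. It had 11952, 5813 and 10133 CPM in the db/db mice and 3820.4, 10979 and 15163 CPM in the db/m mice. The groups overlapped, and db/m mice held both the lowest and the highest value. The means of 9299 ± 3153 CPM (SD, n = 3) and 9988 ± 5736 CPM (SD, n = 3) gave a log2 fold change of -0.10 (SE 0.58, edgeR adjusted p = 0.948), with an approximate 95% interval from -1.24 to 1.04. Without db/m replicate 3 it was 0.34.

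Amy1 (chr3:113555952-113577750) had 357, 149 and 298 CPM in the db/db mice and 90.9, 260.2 and 294 CPM in the db/m mice, and the groups overlapped. Its log2 fold change was 0.32 (SE 0.47, edgeR adjusted p = 0.788). Amy2a5 (chr3:113249178-113258699) had 174, 71.6 and 109.8 CPM in the db/db mice and 33.1, 123 and 136 CPM in the db/m mice. Its groups overlapped as well, with a log2 fold change of 0.29 (SE 0.51, edgeR adjusted p = 0.828). Both were below 0 without db/m replicate 1, at -0.024 for Amy1 and -0.10 for Amy2a5.

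The fold changes moved with the scaling. Db/m replicate 1 was the lowest mouse for 9 of the 9 genes and db/db replicate 1 the highest for 7 of 9, in TMM-scaled CPM. With library size alone, the median of all tested genes moved to -0.59 and that of the 9 genes to 0.16, of which 5 were above 0. Relative to the summed digestive protease counts, the median of the 9 genes was -0.017, with 4 above 0, and the median of all tested genes was -0.80. The distance between the 9 genes and all tested genes was 0.65 with TMM, 0.75 with library size alone and 0.78 relative to the proteases. With the mean log2 level of the proteases as a covariate, 1 of the 9 genes was above 0 (Pnliprp1, at 0.064), the median was -0.48, the distance turned to -0.43 and Clps was at -0.39. In that fit 0 of 9 had an adjusted p under 0.05, and 4 of 9 were lower at an unadjusted p under 0.05, against 5.66% of all tested genes. These were Amy2b (-1.52), Amy2a5 (-1.43), Pla2g1b (-1.38) and Amy1 (-1.09), with edgeR adjusted p from 0.154 to 0.373. The covariate gave each of the 15 proteases the same weight. Among them were Prss1 (log2 fold change 3.10), Prss3 (3.50) and Try10 (1.69), beside a list median of 0.74. The covariate thus held a group difference of its own, which that fit cannot separate from the differences of the 9 genes. When db/m replicate 1 was left out, the 9 genes had a median of 0.37, with 5 above 0, and the distance was 0.35.

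**Figure D2:**
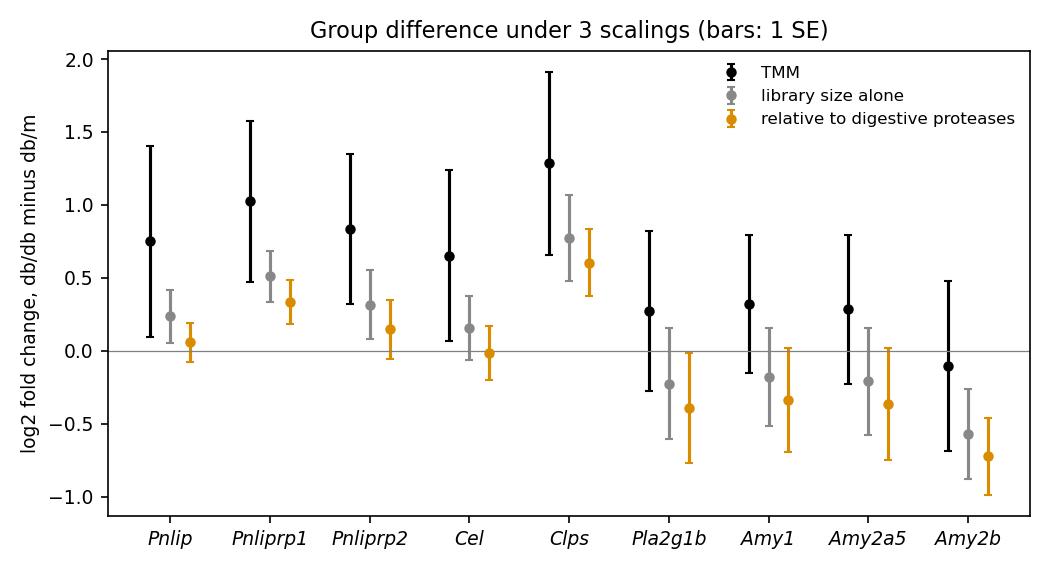
Log2 fold change (db/db minus db/m) of each gene from edgeR under 3 scalings, where points are estimates and bars are 1 SE. Pnlip, Pnliprp1, Pnliprp2 and Clps were above 0 under each of the 3 scalings and Amy2b was below 0 under each, while Cel, Pla2g1b, Amy1 and Amy2a5 changed sign.

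To remove the scaling, counts were compared within each library. The ratio of the 3 amylases to the triglyceride lipases Pnlip, Pnliprp1 and Pnliprp2 addressed whether amylase and lipase mRNA moved together, since amylase mRNA is known to depend on insulin. For each 1000 lipase counts there were 64.5, 49.6 and 83.1 amylase counts in db/db replicates 1, 2 and 3 and 87.3, 128 and 134 in db/m replicates 1, 2 and 3. Every db/db mouse lay below every db/m mouse, with db/db replicate 3 and db/m replicate 1 close to each other. The means were 65.8 ± 16.8 (SD, n = 3) and 116 ± 25.4 (SD, n = 3), so that the ratio was 1.78-fold lower in db/db mice (log2 difference -0.83). The two-sided exact permutation test gave p = 0.1, which is the lowest value possible with 3 mice a group, and 0.267 after Benjamini-Hochberg adjustment over 8 ratios. In 6 alternatives with other genes or another scale the log2 difference was below 0, from -0.84 to -0.39, and the groups did not overlap in 4 of them. They overlapped for Amy2a5 over Pnlip alone (-0.39, two-sided exact permutation test, p = 0.4) and for the difference of mean log2(CPM + 1) over the genes of each side (-0.65, exact p = 0.2). Leaving out Amy1 (-0.84), adding Amy2a1 to Amy2a4 (-0.82) or using counts per kilobase (-0.83) could move the log2 difference little. Amy2b held 95.7% to 97.2% of the counts of the 3 amylases, the added copies had few counts, and the 3 lipase genes have similar exon lengths. With each mouse left out, which cannot turn the direction of groups that do not overlap, the log2 difference lay between -1.03 and -0.64.

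The sides of the ratio were also read as shares of the library. The lipases took 11.7%, 12.1% and 11.6% of the counts in the db/db mice, against 7.87%, 9.43% and 11.3% in the db/m mice, without overlap (two-sided exact permutation test, p = 0.1). Amylases took 0.754%, 0.599% and 0.967% in the db/db mice, against 0.687%, 1.21% and 1.51% in the db/m mice, with overlap (two-sided exact permutation test, p = 0.3). Together the 9 genes took 17.3%, 17.3% and 17.1% of the counts in the db/db mice, against 11.4%, 14.02% and 17.8% in the db/m mice. The db/db mice were almost alike in this share, and the db/m mice were spread on both sides of them (two-sided exact permutation test, p = 0.4).

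**Figure D3:**
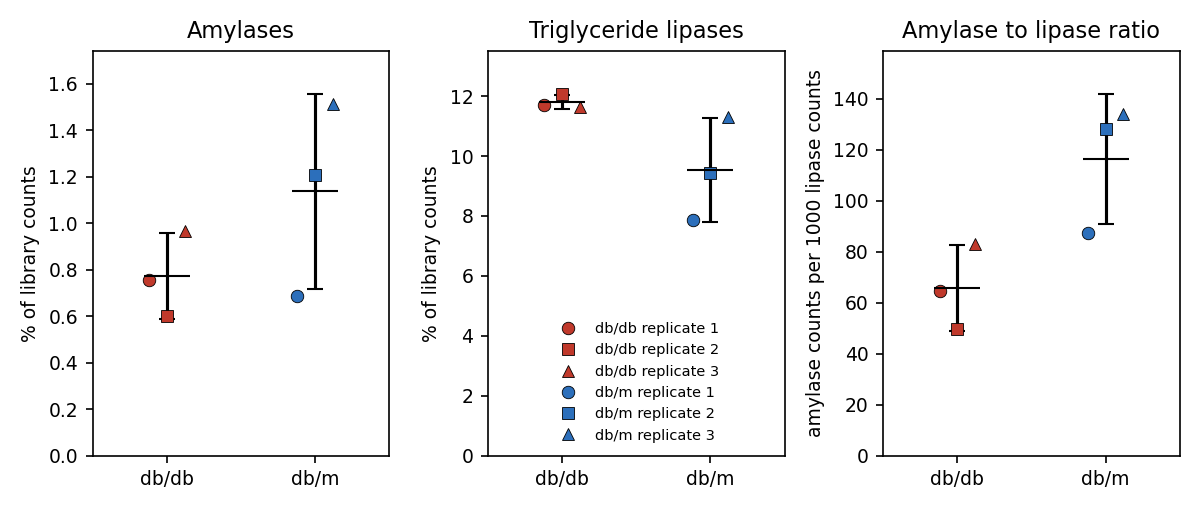
Percent of library counts on Amy1, Amy2a5 and Amy2b (left), percent on Pnlip, Pnliprp1 and Pnliprp2 (middle) and amylase counts per 1000 lipase counts (right) in each mouse, with the mean and SD of each group. The amylase to lipase ratio lay between 49.6 and 83.1 in db/db mice and between 87.3 and 134 in db/m mice.

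A ratio to the lipases that is lower in every db/db mouse was common, being found for 37.6% of the other tested genes, and one that is higher was rare, being found for 0.337%. The other acinar enzymes were therefore set beside the amylases, a description chosen after the values were seen. Of the 6 genes of the set outside this denominator, 1 (Amy2b) was lower and 1 (Clps) was higher without overlap. Of the 15 proteases, 3 were lower and 3 were higher. With its log2 difference of -0.84 Amy2b was the lowest of these 21 genes, followed by the trypsinogen gene Try4 at -0.62 and then by Amy1 (-0.50), Amy2a5 (-0.46) and Pla2g1b (-0.43). Try4 did not overlap between groups, whereas Amy1, Amy2a5 and Pla2g1b did. The medians were -0.50 for the 3 amylases and -0.11 for the 15 proteases. Relative to the summed proteases, amylase counts per 1000 were 13.8, 12.04 and 19.7 in the db/db mice, against 17.3, 24.9 and 32.2 in the db/m mice, which overlapped (log2 difference -0.70, two-sided exact permutation test, p = 0.2, and 0.4 adjusted over 3 ratios). The lipases differed from the proteases by 0.13 (two-sided exact permutation test, p = 0.3).

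Within the lipases, 2 genes differed from Pnlip without overlap. Pnliprp1 had 348, 378 and 386 counts per 1000 Pnlip counts in the db/db mice, against 325, 319 and 284 in the db/m mice, a log2 difference of 0.26. Clps had 224, 162 and 173 counts per 1000 Pnlip counts in the db/db mice, against 95.3, 137 and 144 in the db/m mice, a log2 difference of 0.58. Each was higher in every db/db mouse (two-sided exact permutation test, p = 0.1 and 0.267 adjusted over 8 ratios), a pattern found for 0.431% of the other tested genes. Such a pattern was not particular to these 2 among the acinar enzymes. Against the summed triglyceride lipases, 3 of the 15 proteases were higher without overlap and 3 were lower. The 3 higher ones, Try10 (0.87), Prss1 (2.25) and Prss3 (2.68), had larger log2 differences than Clps (0.51) against that denominator. With each mouse left out the difference lay between 0.20 and 0.31 for Pnliprp1 and between 0.39 and 0.69 for Clps.

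The remaining ratios overlapped between the groups. The log2 difference was 0.09 for Pnliprp2 to Pnlip, -0.061 for Cel to Pnlip and -0.37 for Pla2g1b to Pnlip (two-sided exact permutation tests, p = 0.8, 0.5 and 0.5). Among the amylases it was -0.04 for Amy1 to Amy2a5 and -0.39 for Amy2b to Amy2a5 (two-sided exact permutation tests, p = 0.5 and 0.2). These ratios of amylase genes depend on how reads shared between the copies were counted, and this was not tested.

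**Figure D4:**
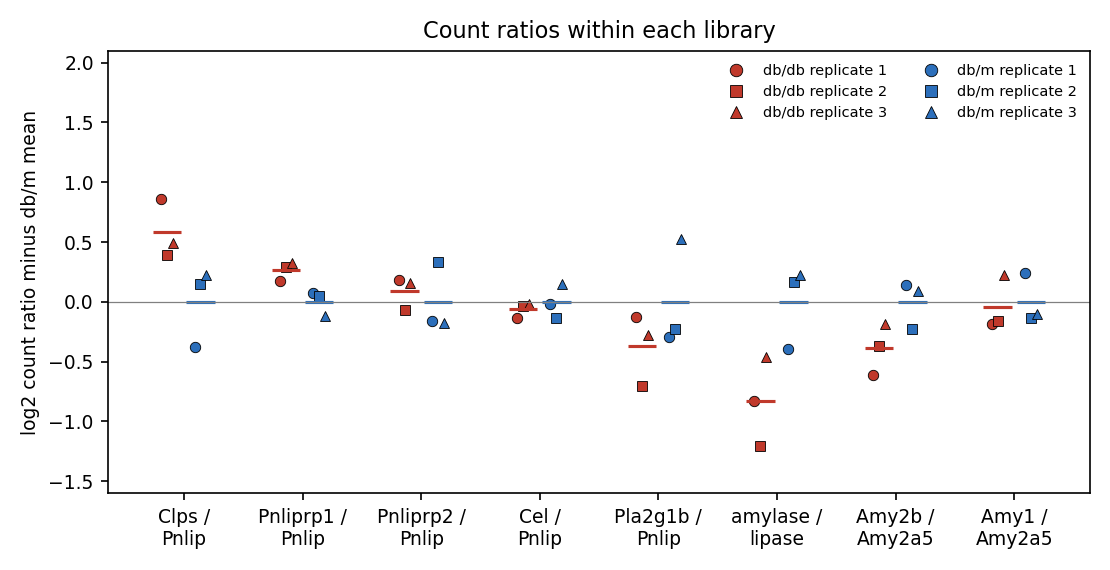
Log2 count ratio in each mouse minus the mean of the db/m mice, for 8 ratios, with horizontal bars at the group means. Clps and Pnliprp1 relative to Pnlip were higher, and amylase relative to lipase was lower, in every db/db mouse than in every db/m mouse, while the other 5 ratios overlapped.

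The other Amy2a copies had few counts, with 982 to 2847 per mouse for Amy2a1, 19 to 94 for Amy2a2, 28 to 123 for Amy2a3 and 11 to 53 for Amy2a4. With these added to the amylases, the log2 difference of the amylase to lipase ratio was -0.82. The counts of the copies are as uncertain as those of Amy2a5, because 84.0% of the 50-base stretches of Amy2a1 and 100% of those of Amy2a2 to Amy2a4 are shared. The part of the amylase counts taken by Amy2b, the amylase share and the amylase to lipase ratio depend on how shared reads were counted. This was not tested.

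**Figure D5:**
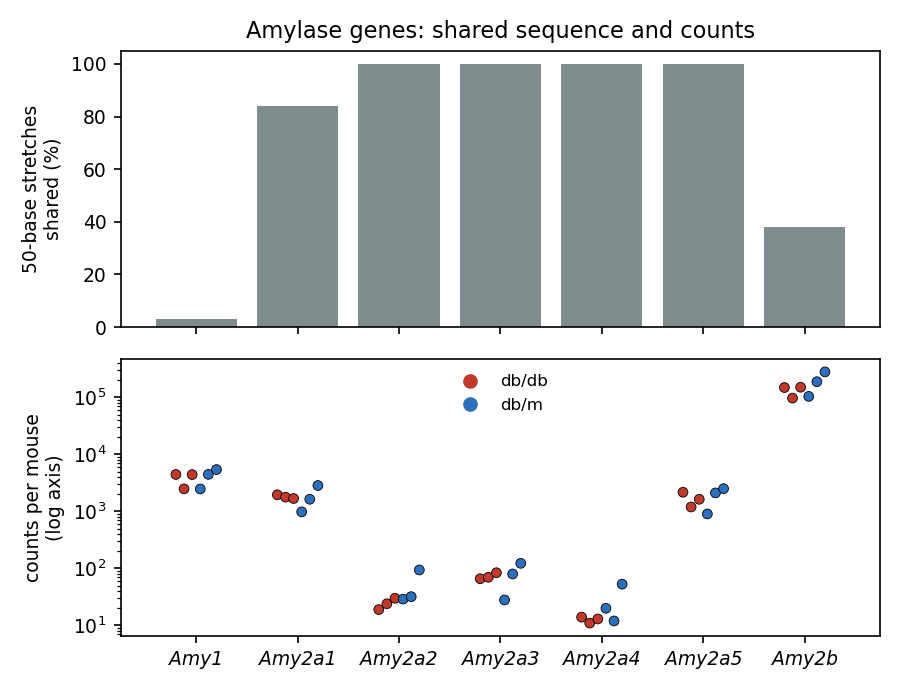
Percent of the 50-base stretches of each amylase gene that occur in another one (top) and counts in each mouse on a log axis (bottom). Amy2a2 to Amy2a5 share 100% of their stretches and had far fewer counts than Amy2b, which shares 38.2%. How reads that match several copies were counted is not given.

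Other genes of the pathways were read from the same edgeR fit. Of the 15 proteases, 2 were called higher in db/db mice and 0 lower, where 0.133% of all genes were called higher. These were the trypsinogen genes Prss1 (log2 fold change 3.10, adjusted p = 0.0178) and Prss3 (3.50, adjusted p = 0.0143), members of a family of close copies among which reads may be split, and the median of the list was 0.74. None of 11 other amylase and starch genes was called (median -0.21), with Pygm, a glycogen phosphorylase, at -0.73 (adjusted p = 0.502). None of 10 other lipases was called (median 0.23), with Mgll, which cleaves monoglycerides, at 0.98 (adjusted p = 0.121) and Liph, a phosphatidic acid lipase, at 1.14 (adjusted p = 0.189). None of 5 other phospholipases A2 was called (median -0.035), with Pla2g12a at 0.56 (adjusted p = 0.273) and Pla2g2f at -1.21 (adjusted p = 0.453).

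Acinar transcription factors showed small differences, with 0 of 10 called and a median of 0.37. Rbpjl, the acinar subunit of PTF1, was at 0.68 (adjusted p = 0.359) and Gata6 at 0.47 (adjusted p = 0.446). Among 7 genes for secretagogue and insulin receptors and their substrates, 0 were called (median -0.21), and the insulin receptor substrates Irs2 (-1.89, adjusted p = 0.120) and Irs1 (-1.33, adjusted p = 0.142) had the smallest p. Of 8 β-cell markers, 3 were called lower, where 0.486% of all genes were, and their summed share was 0.149% to 0.635% of the counts in db/db mice and 0.747% to 4.25% in db/m mice. The 3 were the glucose transporter gene Slc2a2 and the transcription factor genes Mafa and Nkx6-1, while Ins1 was at -2.88 (adjusted p = 0.0870) and Ins2 at -1.23 (adjusted p = 0.388). The part of these shares of β-cell and acinar RNA in the differences of the lipases and amylases was not tested beyond the ratios within the acinar genes given above.

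As a description over the 6 mice, the genes whose log2(CPM + 1) followed the mean profile of the 9 genes most closely, among 4984 genes with a mean of at least 10 CPM, were Cuzd1 (Pearson r = 0.996), a zymogen granule gene, Apc (0.996), Atp13a3 (0.993), Serpini2 (0.993), a serpin of the pancreas, and Crk (0.993). The 9 genes themselves followed that profile with r from 0.862 for Amy2b to 0.972 for Pnlip. Each of them is part of the profile, so that high values are built in and do not show that the genes moved together. The amylase to lipase log2 ratio was followed most closely by Tmx3 (r = 0.991), Zfp275 (0.983) and Arrdc3 (0.979). All of these values share the same 6 libraries and TMM factors, and db/m replicate 1 lay at one end of the profile of the 9 genes.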

How the data were processed

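The authors sequenced rRNA-depleted total RNA of islets from 3 db/db and 3 db/m mice and deposited a table of raw counts, 1 row per gene symbol and not normalized, for build mm10. The methods of the study name TopHat 2.0.14 and the submitters' processing notes name HISAT2 2.0.4 as the aligner, and the counting program, the annotation and the use of strand are not given in the sources used here. The lipase and amylase genes and the gene lists were chosen with earlier results of these data known.

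Counts were analysed with edgeR 4.0.16 in R 4.3.3 (limma 3.58.1 loaded) by filterByExpr, TMM factors and the quasi-likelihood test, adjusted by Benjamini-Hochberg over the 12760 genes tested (threshold 0.05). The SE was taken as the absolute log2 fold change over the root of the F statistic. DESeq2 1.42.0 was an alternative, and its independent filtering was left at the default. All 9 genes passed the filter on low counts. Two-sided exact permutation tests served for ratios and shares per mouse (Python 3.11.15, scipy 1.17.1). Such tests cannot give a p under 0.1 with 3 mice against 3, and they give 0.1 whenever the groups do not overlap, whatever the spread within them. The edgeR and DESeq2 p-values set the group difference against the variation between these mice.

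Shares of single libraries had 95% Clopper-Pearson intervals of at most ± 0.0183 percentage points for the 9 genes together, which cover counting error only. A pseudocount of 1 CPM was used for log2(CPM + 1). Positions, exon lengths, sequences and 50-base stretches came from the RefSeq annotation of GRCm38.p6, and figures were drawn with matplotlib 3.10.9. The named genes were the 9 genes, the list genes with an adjusted p under 0.05 or, where a list had none, its 2 with the smallest p, Ins1 and Ins2, and the genes most like the set in profile (5) and the ratio (3). The markers of other cell types followed the same rule. The result of 1 gene that this rule names is not reported here. The pipeline was tested on simulated data. The deposited table had 0 columns of other samples, and circRNA counts were not analysed here.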

Additional observations from a re-analysis of the deposited data

How the results depend on the processing

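The amylase to lipase ratio was lower in db/db mice in 6 of 6 alternatives with other genes or another scale, and its groups overlapped in 2 of these. Those 2 (log2 differences -0.39 and -0.65) were the ones that gave Amy2b no weight or less weight. The share of the 9 genes differed by 1.16 to 4.55 percentage points over its alternatives. The lipase and amylase genes called numbered 0 in 15 of 16 alternatives and 1 (Pnliprp1) with DESeq2. All genes called, 79 in the reported analysis, numbered 680 with DESeq2, 21 with library size alone, 52 with upper-quartile factors, 888 with no filter on low counts, 26 with the protease score as a covariate, 49 relative to protease counts, and 10 to 333 with each mouse left out in turn. Log2 fold changes that turned were, with the protease score as a covariate, Pnlip -0.36, Pnliprp2 -0.48, Cel -0.42, Clps -0.39, Pla2g1b -1.38, Amy1 -1.09 and Amy2a5 -1.43. Relative to protease counts Cel was -0.017, Pla2g1b -0.40, Amy1 -0.34 and Amy2a5 -0.37, and with library size alone, where the median of all genes fell as well, Pla2g1b was -0.22, Amy1 -0.18 and Amy2a5 -0.21. With a mouse left out, Pla2g1b was -0.15 without db/db replicate 1 and -0.080 without db/m replicate 1, Amy1 was -0.024 without db/m replicate 1, and Amy2a5 was -0.098 without db/db replicate 1 and -0.10 without db/m replicate 1, where the highest values with a mouse left out were 1.05, 0.62 and 0.61. Amy2b turned to 0.15 without db/db replicate 2, 0.0066 without db/m replicate 2 and 0.34 without db/m replicate 3, with -0.46 as the lowest value with a mouse left out, and it was -0.57 with library size alone, -0.72 relative to protease counts and -1.52 with the protease score as a covariate. Among the ratios, Cel to Pnlip was 0.013 without db/m replicate 3 (lowest -0.13), and Amy1 to Amy2a5 was 0.031 without db/db replicate 1, 0.020 without db/db replicate 2 and 0.079 without db/m replicate 1 (lowest -0.17). The cause of these changes was not tested.

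The replicate numbers were not treated as a pairing, since no label states one. Same-numbered mice deviated from their group means in opposite directions (correlations across genes of -0.527, -0.195 and -0.323). With deviations from means of 3 mice, such correlations cannot show whether the mice were paired. Under a replicate block, 16 genes in all and 0 of the 9 were called, and Amy2b was 0.010. The amylase to lipase log2 difference was -0.83, which a block cannot move in a balanced design, with an exact sign-flip p of 0.25, the smallest that 3 pairs allow.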

Other observations

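Markers of other cells that an islet preparation can hold were also read from the edgeR fit. Of 6 duct markers 0 were called, all 6 were above 0 and the median log2 fold change was 0.53, with Krt19 at 1.29 (adjusted p = 0.232) and Spp1 at 1.24 (adjusted p = 0.234). Of 5 markers of stroma and endothelium 0 were called (median 1.15), with Col1a1 at 2.09 (adjusted p = 0.378) and Col1a2 at 1.36 (adjusted p = 0.445). Counts were low, and db/m replicate 1 stood apart. In db/m replicates 1, 2 and 3, Col1a1 had 167, 3 and 3 counts and Col1a2 had 238, 22 and 14. In db/db replicates 1, 2 and 3, Col1a1 had 80, 208 and 147 and Col1a2 had 76, 187 and 163. The 3 tested markers of other islet endocrine cells had a median of -0.73, with Sst at -0.73 (adjusted p = 0.675) and Ppy at -0.93 (adjusted p = 0.530). Of 5 leukocyte markers 0 were called (median 0.65), with Cd79a at -2.57 (adjusted p = 0.223) and Cd3e at 1.53 (adjusted p = 0.628). Cd3e was near the floor, with 0, 13 and 20 counts in db/db replicates 1, 2 and 3 and 18, 0 and 0 in db/m replicates 1, 2 and 3. Of 6 fat cell markers 1 passed the filter on low counts, Fabp4 (-0.70, adjusted p = 0.640), and Lep was at 0 counts in every mouse. Of 5 liver and salivary gland markers 1 was tested, Alb (-0.41, adjusted p = 0.846).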
